A study of Homo sapiens with 6 samples.

Results

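Cytosolic ribosomal protein genes encode the protein subunits of the ribosome that translates nuclear-encoded mRNA. The genes were taken by name from a table of 20014 genes measured in HaCaT cells: every protein-coding symbol that starts with RPL or RPS and a digit, with RPLP0, RPLP1, RPLP2 and RPSA. The ribosomal S6 kinases (10 genes named RPS6K), RPS27L and 1 pseudogene were left out. This gave 90 genes. Of these, 77 encode core subunits: 43 proteins of the large subunit, the 3 stalk proteins, which also sit on the large subunit, and 31 proteins of the small subunit. The other 13 are 9 paralogs of core genes, 3 read-through genes that join a core gene to its neighbour, and RPS19BP1, whose product binds a ribosomal protein and is no subunit. A mean of at least 1 FPKM over the 6 libraries was reached by 86 genes, and these were tested. The 4 below it were RPL3L, RPL10L, RPS4Y1 and RPS4Y2. RPL3L, a striated-muscle paralog of RPL3, had 0.130, 0.104 and 0.0470 FPKM in the knockout, against 0.126, 0.0870 and 0.239 FPKM in the control, and RPL10L, a testis paralog of RPL10, was listed at 0 in all 6 libraries.

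HaCaT is an immortalized human keratinocyte line. It was studied as STUB1 knockout cells (3 libraries) and as control cells of the same line (3 libraries), neither with a further treatment. Per the labels, both kinds of cells were made by lentiviral delivery of Cas9 with a guide against STUB1 or a control guide, so the controls had also passed through infection. Sorted cells were grown as colonies and checked for the STUB1 protein by immunoblot, and poly(A) RNA was sequenced. Whether a group's libraries are separate clones, cultures or repeats of a single one is not stated in the labels, and p-values here reflect library-to-library spread alone, possibly technical. STUB1, also called CHIP, is a ubiquitin ligase that works with the HSP70 and HSP90 chaperones, and the series title names EDAR and NF-κB signalling in epithelium.

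A ribosome holds a single copy of most of its proteins, so cells make these proteins in matched amounts, and copies that are not built into a subunit are degraded. Their mRNAs are among the most abundant of a growing cell. Most of them begin at their 5′ end with a C followed by an unbroken run of pyrimidines, the TOP motif (terminal oligopyrimidine), through which LARP1 and the mTOR kinase set how strongly they are translated. Control of this kind acts on translation and need not change the amount of mRNA, which is what was measured here.

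The sequences below show the starts of genes that the results turn on, with runs of C and T near the annotated start. Each runs 5′ to 3′ on the strand of the gene, from 40 bases before the RefSeq start of the gene to 20 bases from it, on build GRCh38.p14. Capitals mark the longest run of C and T within 5 bases of the start, where it has at least 8 letters. The rule asks for no C at the start itself, so a marked run is not always a TOP motif. The first 4 are RPL38, RPL27, RPL19 and RPS12, which were lower in the knockout. They are followed by RPS28, RPL13A and RPS15, which were higher once control library 3 was left out, by RPL39 on the X chromosome, and by RPL22, which went against its neighbours.
RPL38: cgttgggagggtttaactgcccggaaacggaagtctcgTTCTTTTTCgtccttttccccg
RPL27: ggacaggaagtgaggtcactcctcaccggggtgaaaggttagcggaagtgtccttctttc
RPL19: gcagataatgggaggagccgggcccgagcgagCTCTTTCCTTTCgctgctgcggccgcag
RPS12: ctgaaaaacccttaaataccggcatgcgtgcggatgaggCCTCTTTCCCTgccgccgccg
RPS28: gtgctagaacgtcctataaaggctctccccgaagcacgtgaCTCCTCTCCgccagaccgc
RPL13A: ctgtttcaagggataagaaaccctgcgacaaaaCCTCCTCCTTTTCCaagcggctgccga
RPS15: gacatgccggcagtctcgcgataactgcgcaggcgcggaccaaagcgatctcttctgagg
RPL39: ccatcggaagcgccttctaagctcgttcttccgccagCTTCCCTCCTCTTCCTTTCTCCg
RPL22: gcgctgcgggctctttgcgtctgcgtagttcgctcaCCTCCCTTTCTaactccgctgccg

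The windows lie at chr17:74203638-74203697 on the plus strand (RPL38), chr17:42998379-42998438 on the plus strand (RPL27), chr17:39200283-39200342 on the plus strand (RPL19), chr6:132814529-132814588 on the plus strand (RPS12), chr19:8321456-8321515 on the plus strand (RPS28), chr19:49487568-49487627 on the plus strand (RPL13A), chr19:1438356-1438415 on the plus strand (RPS15), chrX:119791611-119791670 on the minus strand (RPL39) and chr1:6199576-6199635 on the minus strand (RPL22). The runs measure 9 bases in RPL38, 12 in RPL19, 11 in RPS12, 9 in RPS28, 14 in RPL13A, 22 in RPL39 and 11 in RPL22. RPL27 and RPS15 have none of 8 letters at the annotated start, and no capitals. RefSeq windows were matched for 62 of the 77 core genes, and 49 of these (79.0%) held such a run, against 1316 of 8844 other tested genes (14.9%) and 7 of 69 mitochondrial ribosomal protein genes (10.1%). The run was found in genes that went either way. It was present in 7 of 9 core genes on chromosomes 17 and X with RPS12 (77.8%) and in 7 of 9 core genes on chromosome 19 (77.8%). A match describes the letters at an annotated start and does not show where transcription began in these cells.

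The 6 libraries held 11200 to 11292 genes at 1 FPKM or more. FPKM is a fragment count scaled to gene length and to the library total, and no read counts were used here, so counting error is unknown. STUB1 mRNA had 21.6, 24.7 and 23.2 FPKM in STUB1 knockout libraries 1 to 3, against 37.8, 41.9 and 52.7 FPKM in control libraries 1 to 3, a log2 fold change of -0.89 (SE 0.116, adjusted p = 0.00125 in limma). It was lower in 3 of 3 knockout libraries, and still present. Of 13 keratinocyte markers 10 reached 1 FPKM, with a summed level of 1174 to 1288 FPKM in the knockout and 933.6 to 994.6 FPKM in the control. None of 9 fibroblast or 8 leukocyte markers reached 1 FPKM, and 2 of 7 melanocyte markers did (summed level 6.48 to 7.66 FPKM in the knockout, 6.77 to 7.41 FPKM in the control), with TYR, DCN and MS4A1 listed at 0 in all libraries. Control library 3 stood apart. Its level against the mean of all libraries changed with exonic length by -0.10 log2 units per doubling, against -0.0094 to 0.035 in the other 5, and its mitochondrial transcripts took 20.9% of FPKM, against 26.2% to 30.8% in the knockout and 24.7% and 26.8% in the other controls.

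Ribosomal protein mRNAs were high in control 3. The summed FPKM of the 77 core genes took 12.3%, 12.6% and 12.3% of the non-mitochondrial FPKM in knockout libraries 1 to 3, against 12.0%, 11.9% and 14.3% in control libraries 1 to 3. Knockout libraries and controls 1 and 2 thus lay close together, and control 3 was above all of them. Control 3 was the highest of the 6 libraries for 83 of the 86 tested members, against 31.6% of all 11262 tested genes, and it stood at a median of 135% of the mean of controls 1 and 2 for the members and 98.9% for all genes. The core genes had a median exonic length of 3109 bases, against 4951 bases for the tested genes with a known length. The part of the length trend of control 3 in its high ribosomal protein level was not tested, and the main counts are therefore given with all 6 libraries and without control 3.

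**Figure D1:**
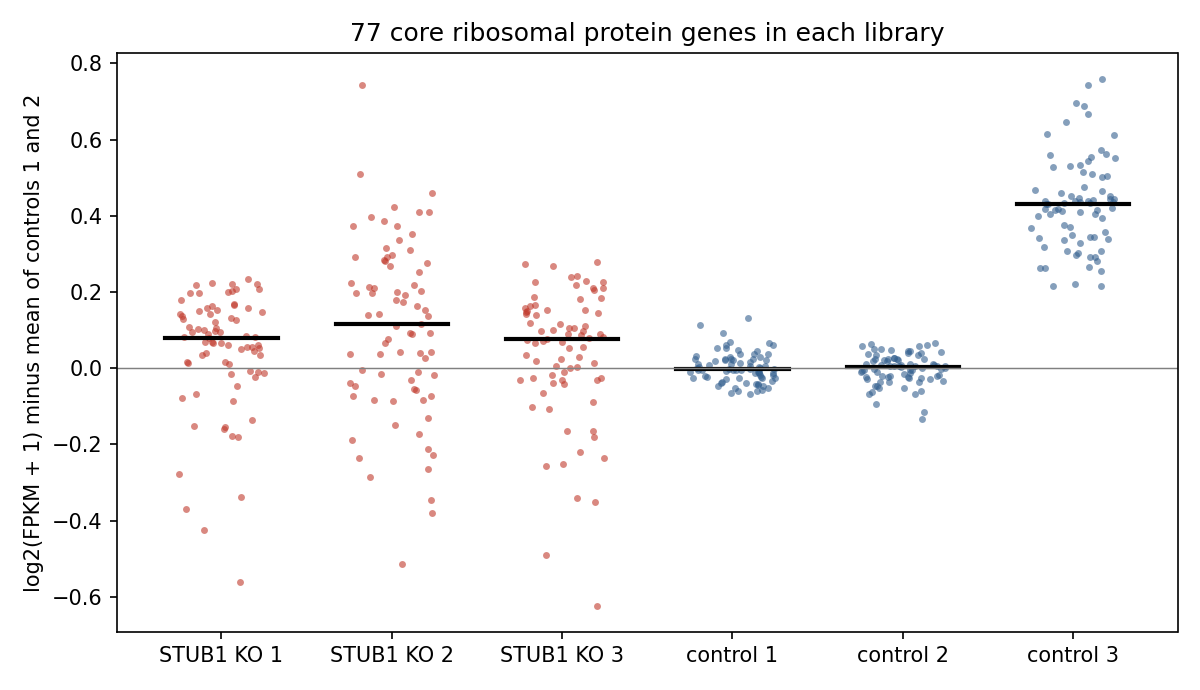
Each point is 1 of the 77 core ribosomal protein genes in 1 library, as log2(FPKM + 1) minus the mean of controls 1 and 2 for that gene, and the black line is the median of the library. The points of control 3 lie above those of every other library as a group. Controls 1 and 2 lie near 0 because they form the baseline, and the 3 STUB1 knockout libraries spread further downward. For 43 of the 77 genes all 3 knockout libraries are above both controls 1 and 2, and for 16 they are below both.

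Most ribosomal protein mRNAs did not pass the test between STUB1 knockout and control, and those that passed with all 6 libraries were all lower in the knockout. Limma called 5 of 86 members (5.81%), 0 higher and 5 lower, where it called 22.9% of all tested genes (9.58% higher, 13.3% lower). At an unadjusted p under 0.05 there were 0 higher and 13 lower members (15.1%), where 17.1% of all tested genes were higher and 21.0% lower. The median log2 fold change was -0.055 over the members and -0.010 over all tested genes. With the replicate number as a block the counts were 0 higher and 6 lower, where 27.1% of all tested genes were called. In bulk RNA, fewer cells that express a gene and less RNA per cell cannot be told apart. The 5 genes were RPL38, RPL27, RPL23 and RPL19 on chromosome 17 and RPS12 on chromosome 6.

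RPL38 is a large-subunit protein that in mice is needed for the translation of a group of Hox mRNAs. It had 118, 122 and 113 FPKM in STUB1 knockout libraries 1 to 3, against 170.3, 179.9 and 244 FPKM in control libraries 1 to 3. All knockout values lay below all control values, and the 3 knockout values lay within a narrow range. Its mean was 118 ± 4.54 FPKM in the knockout and 198 ± 40.03 FPKM in the control (SD, n = 3 each), 59.6% of the control mean, with a log2 fold change of -0.72 (SE 0.127, adjusted p = 0.00449). RPL38 passed whichever library was left out, with an adjusted p of at most 0.0370, and without control 3 its log2 fold change was -0.57 (adjusted p = 1.59e-06).

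RPL27, a large-subunit protein that is mutated in some cases of Diamond-Blackfan anaemia, had 353, 373 and 337 FPKM in STUB1 knockout libraries 1 to 3, against 467, 483 and 612 FPKM in control libraries 1 to 3. The groups did not overlap, and the log2 fold change was -0.54 (SE 0.112, adjusted p = 0.00971). RPL23, a large-subunit protein that can bind the p53 ligase MDM2 when it is free of ribosomes, had 201, 196 and 199 FPKM in STUB1 knockout libraries 1 to 3, against 254, 256 and 322 FPKM in control libraries 1 to 3. The groups again lay apart, with a log2 fold change of -0.47 (SE 0.101, adjusted p = 0.0118). RPL19, which forms part of a bridge between the subunits, had 525, 541 and 533 FPKM in STUB1 knockout libraries 1 to 3, against 632, 641 and 809 FPKM in control libraries 1 to 3. Every knockout value was under every control value, and the log2 fold change was -0.37 (SE 0.107, adjusted p = 0.0365). Without control 3 the log2 fold changes of RPL27, RPL23 and RPL19 were -0.42, -0.36 and -0.26 (adjusted p = 2.76e-05, 5.57e-05 and 0.000911).

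RPS12, a protein of the small-subunit head, was the sole small-subunit gene that passed. It had 715, 758 and 729.8 FPKM in STUB1 knockout libraries 1 to 3, against 964, 887 and 1338 FPKM in control libraries 1 to 3. Control 3 was the highest value by a wide margin, and controls 1 and 2 were still above all knockout libraries. The log2 fold change was -0.51 (SE 0.144, adjusted p = 0.0339), and -0.33 without control 3 (adjusted p = 0.000227). Leaving out a knockout library took some calls away. RPL27 did not pass without knockout 3 (adjusted p = 0.0509), RPL23 without knockout 2 or 3 (0.0724 and 0.0501), and RPS12 and RPL19 without knockout 1, 2 or 3 (0.106, 0.123 and 0.0998 for RPS12, 0.114, 0.125 and 0.121 for RPL19). The count of lower members was 3, 2 and 1 without knockout 1, 2 and 3, and 5, 8 and 12 without control 1, 2 and 3. Calls over the whole table also moved in these fits, from 1500 lower of 11262 genes with all 6 libraries to between 639 and 2418. The log2 fold changes of all 5 genes stayed negative in each of these fits.

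**Figure D2:**
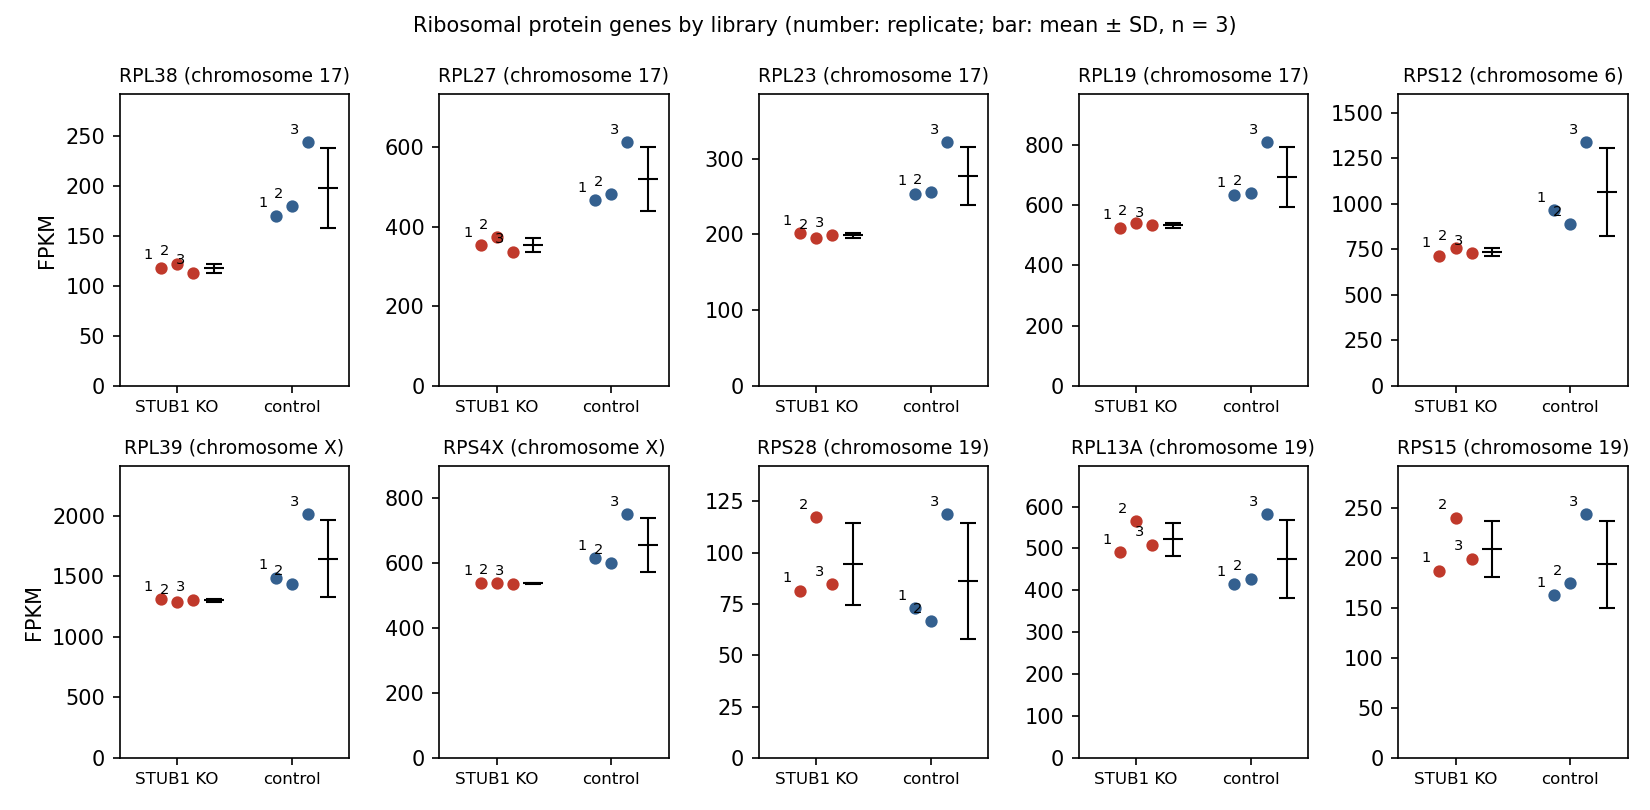
FPKM of 10 ribosomal protein genes by library, STUB1 knockout in red on the left and control in blue on the right, numbered by replicate, with the mean ± SD (n = 3) as a bar beside the points. The 5 genes of the upper row are those called lower, and all their knockout points lie below all control points. In the lower row RPL39 and RPS4X show the same order, whereas RPS28, RPL13A and RPS15 have all knockout points above controls 1 and 2 and below control 3.

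Without control 3, members were called in both directions. Limma then called 24 members higher and 12 lower of 86, where it called 40.1% of all tested genes (18.7% higher, 21.5% lower), and the median log2 fold change of the members was 0.072. All 5 genes above remained lower. The 3 knockout libraries were above both controls 1 and 2 for 45 members and below both for 20, against 29.5% and 33.4% of all tested genes. With control 3 included, the 3 knockout libraries were above all controls for 0 members and below all controls for 20, against 20.4% and 25.3% of all tested genes. Control 3 was the highest library for 83 of the 86 members. Including it could therefore hardly remove a member from those below, and it overlapped those above both other controls. These counts are no check on either direction. Array weights, a limma option that gives less weight to a library that varies more, called 24 members higher and 14 lower with all 6 libraries, where 27.9% of all tested genes were higher and 29.3% lower. A correction for GC content and exonic length, run without control 3, called 40 members higher and 8 lower, where 23.2% and 22.1% of all tested genes were higher and lower. Under that correction RPL26, RPL36A, RPL39 and RPS4X were no longer called lower without control 3, with log2 fold changes of -0.10, -0.083, -0.10 and -0.071 (adjusted p = 0.0671, 0.146, 0.105 and 0.208), so that 1 member on the X chromosome, RPL36A-HNRNPH2, was lower in place of 4. With all 6 libraries the correction gave 1 higher member, RPL7 (adjusted p = 0.0471), and 7 lower, the 5 genes above with RPL7L1 and RPL36A-HNRNPH2 (adjusted p = 0.0263 and 0.0345), where 13.5% of all tested genes were higher and 14.7% lower.

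Of the 46 genes of the large subunit, stalk included, 4 (8.7%) were lower and 0 higher with all 6 libraries. Among all tested genes 13.3% were lower and 9.58% higher. All 4 are on chromosome 17. Without control 3, 14 of the 46 were higher and 8 lower, where 18.7% and 21.5% of all tested genes were higher and lower. RPL36A, which lies at the site where spent tRNA leaves the ribosome, had 298, 291 and 289 FPKM in the knockout, against 349.8, 325 and 478 FPKM in the control. Its groups did not overlap, and it did not pass with all 6 libraries (adjusted p = 0.0727), passed with the replicate number as a block (0.0493) and passed without control 3 (0.00658). RPL39, a small protein that lines the exit tunnel for the growing chain, had 1312, 1286 and 1307 FPKM in the knockout, against 1489.6, 1439 and 2013 FPKM in the control. The knockout values lay below all controls, with a log2 fold change of -0.32 (adjusted p = 0.106) and of -0.17 without control 3 (adjusted p = 0.0158). RPL26, which sits near the tunnel exit, showed the same order at 576, 547 and 544 FPKM in the knockout, against 651, 631 and 812 FPKM in the control, with adjusted p = 0.0620 and, without control 3, 0.00579.

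RPL23A, which at the tunnel exit docks factors that meet the growing chain, had 406, 439.8 and 379 FPKM in the knockout, against 439.9, 463 and 609.5 FPKM in the control, and did not pass in either fit (adjusted p = 0.127 and 0.0690). RPL10, which joins the large subunit in its last assembly steps, had 265, 278 and 269 FPKM in the knockout, against 281, 282 and 349 FPKM in the control. It was below all controls, by the smallest margin of the X-linked members (log2 fold change -0.16, adjusted p = 0.265). RPL22, an RNA-binding protein that is lost in some tumours, had 185, 162 and 174 FPKM in the knockout, against 193, 196 and 241 FPKM in the control. It was lower without control 3 (log2 fold change -0.17, adjusted p = 0.0328) and missed the threshold with all 6 libraries (0.0839).

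Among the higher large-subunit genes, RPL13A, which in monocytes can leave the ribosome to silence mRNAs after interferon, had 491, 565 and 509 FPKM in the knockout, against 414, 428 and 582 FPKM in the control. All knockout libraries were above controls 1 and 2 and below control 3, and the log2 fold change was 0.31 without control 3 (adjusted p = 0.000984) and 0.15 with it (0.431). RPL3, which reaches close to the catalytic centre, had 792, 817 and 798 FPKM in the knockout, against 666, 706 and 796 FPKM in the control. Here control 3 lay inside the knockout range, and the log2 fold changes were 0.23 without it (adjusted p = 0.00305) and 0.15 with it (0.249). RPL11, which can bind MDM2, had log2 fold changes of 0.10 and -0.022, and passed in neither fit (adjusted p = 0.139 and 0.905).

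The stalk proteins, which recruit the elongation factors, did not pass with all 6 libraries. RPLP0, which anchors the stalk, had 856, 887 and 868 FPKM in the knockout, against 794, 815 and 965 FPKM in the control (adjusted p = 0.872). RPLP1, which pairs with RPLP2, had 735, 783 and 728 FPKM in the knockout, against 624, 634 and 1014 FPKM in the control (adjusted p = 0.941). RPLP2 had 570.4, 556 and 539.6 FPKM in the knockout, against 518, 561 and 844 FPKM in the control (adjusted p = 0.462). Control 3 was the highest library for all 3 genes, and without it RPLP1 alone was called, as higher in the knockout (log2 fold change 0.25, adjusted p = 0.00170).

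In the small subunit, 1 of 31 genes (3.23%) was lower and 0 higher with all 6 libraries, where 13.3% of all tested genes were lower and 9.58% higher. Without control 3, 10 were higher and 2 lower, where 18.7% and 21.5% of all tested genes were higher and lower. RPS4X, the X-linked gene of a pair whose other copy is on the Y chromosome, was the other gene that was lower without control 3. It had 537, 539 and 535 FPKM in the knockout, against 613, 600.4 and 749 FPKM in the control. The knockout values were nearly equal and lay below all controls, with adjusted p = 0.0758 and, without control 3, 0.0111. RPS28, near the mRNA exit of the small subunit, had 81.5, 117 and 84.8 FPKM in the knockout, against 73.1, 66.6 and 119 FPKM in the control. Knockout 2 was far above knockouts 1 and 3 and close to control 3, so the groups overlapped, and the log2 fold change was 0.41 without control 3 (adjusted p = 0.00684) and 0.16 with it (0.608).

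RPS15, in the head of the small subunit, had 187, 240.3 and 199 FPKM in the knockout, against 163, 175 and 244 FPKM in the control, with a log2 fold change of 0.30 without control 3 (adjusted p = 0.00771). All its knockout libraries were above controls 1 and 2, and knockout 2 was the highest of them. RPS3, RPS20 and RPS10 carry ubiquitin when ribosomes stall or collide, attached by ligases other than STUB1. RPS3 and RPS20 were higher without control 3 (log2 fold change 0.19, adjusted p = 0.0166, and 0.21, adjusted p = 0.00637), and RPS10 did not pass (0.13, 0.0918). With all 6 libraries the log2 fold changes of these genes were 0.049, 0.032 and -0.044.

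RPS27A is made as a fusion with ubiquitin and so supplies both. It had 656, 651 and 667 FPKM in the knockout, against 649.7, 555 and 882 FPKM in the control. Control 2 was the lowest library and control 3 the highest, and the gene did not pass (adjusted p = 0.825, and 0.103 without control 3). RPS6, the substrate of the S6 kinases, had 445, 425 and 433 FPKM in the knockout, against 415, 412 and 559 FPKM in the control, without a call in either fit (adjusted p = 0.688 and 0.279). RPSA, a core subunit also known as the laminin receptor, had 466, 462 and 458 FPKM in the knockout, against 401, 408 and 560.0 FPKM in the control, and was higher without control 3 (log2 fold change 0.19, adjusted p = 0.00671). FAU, which encodes a ribosomal protein fused to a ubiquitin-like one, and RACK1, a scaffold protein of the small subunit, did not pass with all 6 libraries (log2 fold change -0.037, adjusted p = 0.874, and 0.042, adjusted p = 0.762). Without control 3 FAU was higher (0.15, adjusted p = 0.0454) and RACK1 did not pass (0.10, 0.212).

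The members with the highest mean FPKM were RPS18, a protein of the small-subunit head, RPL35 near the tunnel exit, the large-subunit protein RPL7A, RPL39 and RPL12, which forms the base of the stalk. RPS18 had 1774, 1650.1 and 1776 FPKM in the knockout, against 1683, 1638 and 2035 FPKM in the control, and RPL35 had 1587, 1645 and 1535 FPKM in the knockout, against 1368, 1502 and 1950.0 FPKM in the control. In both, the knockout values fell inside the range of the controls. RPL7A and RPL12 had knockout means of 1548 and 1449 FPKM, against control means of 1412 and 1379 FPKM, and were higher without control 3 (adjusted p = 0.00243 and 0.0255) but not with it (0.374 and 0.622). Core genes ranged from 17.7 FPKM (RPS29) to 1759 FPKM (RPS18) in the mean of 6 libraries, although a ribosome needs most of their products in equal number. Across the 77 core genes the mean FPKM fell with the exonic length of the annotation (Spearman's rho -0.55, Pearson's r -0.59 on log values), and RPS29 is annotated with 9845 exonic bases, so these levels give no order of mRNA abundance between genes. Ribosomal protein genes also have many processed pseudogenes with near-identical sequence, and how reads that match several places were counted is not stated in the labels or the submitters' notes.

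Some paralogs, though not necessarily all of those tested here, replace their parent protein in certain tissues and tumours. Of the 5 tested paralogs, none passed with all 6 libraries and no correction for GC content and length. RPL22L1 had 33.1, 28.5 and 32.5 FPKM in the knockout, against 34.1, 32.1 and 46.1 FPKM in the control, and the groups overlapped (adjusted p = 0.215). Its level was 18.1% ± 0.569 of RPL22 in the knockout and 17.7% ± 1.37 in the control (SD, n = 3 each; two-sided exact permutation test, p = 0.8). RPL36AL stood at 59.4% ± 1.30 of RPL36A in the knockout and 53.1% ± 1.53 in the control (exact p = 0.1, the smallest that 3 against 3 allows, and 0.333 after Benjamini-Hochberg adjustment over 5 pairs). The share was higher in all 3 knockout libraries than in any control. RPL26L1 stood at 4.48% ± 0.195 of RPL26 in the knockout and 4.16% ± 0.136 in the control, and RPL39L at 2.51% ± 0.163 of RPL39 in the knockout and 2.26% ± 0.138 in the control (exact p = 0.2 each, 0.333 after adjustment). RPL7L1 had 58.8, 54.6 and 57.4 FPKM in the knockout, against 64.3, 66.5 and 61.1 FPKM in the control. It was below all controls and lower without control 3 (adjusted p = 0.0117, and 0.121 with it, or 0.0263 with it and the GC and length correction), at 5.73% ± 0.336 of RPL7 in the knockout and 6.55% ± 1.09 in the control (exact p = 0.4, 0.5 after adjustment). A paralog and its parent are close in sequence and may share reads.

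The read-through genes followed the core genes whose exons they contain. RPL36A-HNRNPH2 had 589.8, 575 and 574 FPKM in the knockout, against 691, 649.7 and 922 FPKM in the control, lay below all controls and, like RPL36A, passed without control 3 (adjusted p = 0.00520) and not with it (0.0704), except under the GC and length correction (0.0345). RPL17-C18orf32 and RPL17 had log2 fold changes of -0.074 and -0.070, and RPS10-NUDT3 and RPS10 had -0.045 and -0.044. None of these 4 passed. The overlap of exons means that the values of each pair are not separate measurements.

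The direction of the members differed by the chromosome that carries them. Chromosomes 17, X, 6 and 19 were singled out after the values were seen. All 6 members on chromosome 17 had the 3 knockout libraries below all controls, with log2 fold changes of -0.72 to -0.29, and so did all 5 members on the X chromosome, at -0.37 to -0.16. The same order was found in 390 of 684 other tested genes on chromosome 17, in 181 of 334 on X, and in 25.3% of all tested genes. On chromosome 19, all 12 members had the knockout libraries above controls 1 and 2, and 10 of them were called higher without control 3. Knockout libraries were above controls 1 and 2 in 385 of 771 other tested genes on chromosome 19, and in 29.5% of all tested genes. Of the 12 members called lower without control 3, 11 were on chromosomes 6, 17 and X, and the remaining gene was RPL22 on chromosome 1. The 57 members on the other chromosomes gave 0 higher and 0 lower calls with all 6 libraries, and 14 higher and 1 lower without control 3. Over all tested genes 9.58% were higher and 13.3% lower with all 6 libraries, and 18.7% and 21.5% without control 3.

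The difference was also taken relative to other core genes of the same library, as deviations centred over the 6 libraries. Relative to the 51 core genes outside chromosomes 6, 17, 19 and X, the median of the 6 members on chromosome 17 deviated by -0.18, -0.20 and -0.20 log2 units in knockout libraries 1 to 3, against 0.20, 0.21 and 0.14 in control libraries 1 to 3. For the 4 core members on X the deviations were -0.11, -0.17 and -0.11 in the knockout, against 0.15, 0.090 and 0.094 in the control. In both cases the groups lay apart and control 3 fell with the other controls. Centring sets the group means on opposite sides of 0, and these chromosomes were picked from the same values. Their separation therefore adds no evidence. For the 12 members on chromosome 19 the deviations were -0.032, 0.16 and 0.022 in the knockout, against -0.13, -0.068 and 0.023 in the control, and the groups overlapped, with knockout 2 the highest.

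**Figure D3:**
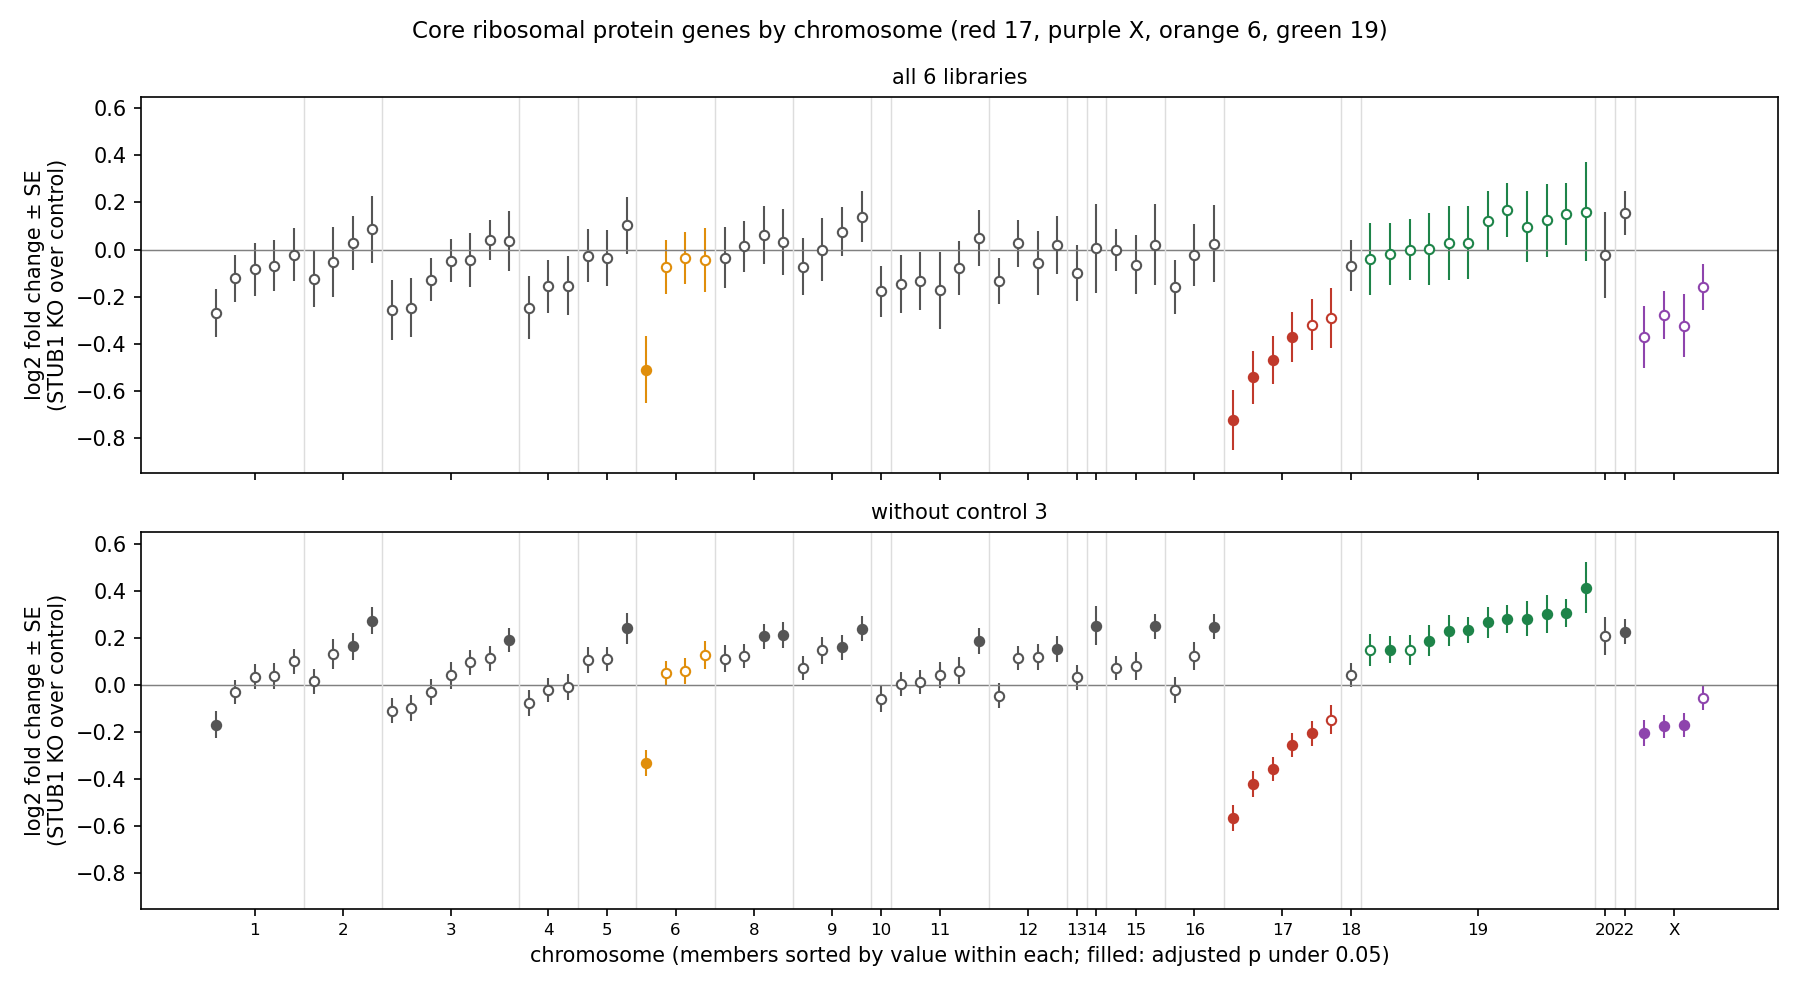
Log2 fold change of STUB1 knockout over control, ± SE from limma, for the 77 core genes ordered by chromosome and, within each, by value, with all 6 libraries above and without control 3 below. Filled points have an adjusted p under 0.05. Members on chromosome 17 (red) and X (purple) lie below 0 in both panels, and those on chromosome 19 (green) all lie above 0 in the lower panel.

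Other genes on chromosomes 17, X and 19 were called mostly in the direction of the members. Those on chromosome 6 were called mostly lower, whereas 1 of its 6 members was called lower with all 6 libraries. Without control 3 the median log2 fold change of these 6 members was 0.056. Other tested genes on chromosome 17 were called higher in 9 and lower in 296 of 684 cases, with a median log2 fold change of -0.24. On the X chromosome these numbers were 4 and 122 of 334 (median -0.19), on chromosome 6 they were 33 and 233 of 569 (median -0.15), and on chromosome 19 they were 107 and 14 of 771 (median 0.12). Without control 3 the higher and lower counts were 22 and 436 on chromosome 17, 15 and 168 on X, 68 and 277 on chromosome 6, and 265 and 27 on chromosome 19. With all 6 libraries and the GC and length correction, chromosome 17 had 12 and 417 (median -0.28) and chromosome 19 had 103 and 55 (median 0.028). The 12 members on chromosome 19 then had a median of -0.00096, against 0.064 uncorrected. Without control 3, 9 of these 12 were higher under the correction. Chromosome 22, not singled out, had 57 higher and 5 lower of 275 other genes without the correction (median 0.12). Around RPL38, the 83 other tested genes that start within 5 Mb had a median of -0.38, of which 54 were lower and 0 higher. The medians around RPL27, RPL23 and RPL19 were -0.26, -0.24 and -0.24, and that around RPS12 was -0.52, over 134, 116, 125 and 21 genes. RPS12, at -0.51, lay close to its neighbours with all 6 libraries, whereas without control 3 it had -0.33 against -0.53. RPL38 lay below the median of its neighbours in both fits (-0.57 against -0.36 without control 3). On chromosome 6, RPS18, RPS10 and RPL10A had neighbours with medians above 0 and did not pass. RPL7L1, on the same chromosome, was lower without control 3 at -0.20, where its neighbours had a median of 0.053.

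Over the 77 core genes, the log2 fold change and the median of the neighbours correlated at Pearson's r 0.76 and Spearman's rho 0.65 with all 6 libraries, and at 0.76 and 0.67 without control 3. Both measures come from the same libraries, and members on 1 chromosome share neighbours. Without control 3, 57 of the 77 core genes had the sign of their neighbours. RPL22 went against its neighbours, at -0.17 where 84 neighbours had a median of 0.12. RPS28 had 0.41 against 0.13 for 192 genes, and with all 6 libraries 0.16 against 0.13. Without knockout 2, and with control 3 kept, the log2 fold change of RPS28 was -0.0040. No fit left out both of these libraries. Knockouts 1 and 3, at 81.5 and 84.8 FPKM, were above controls 1 and 2, at 73.1 and 66.6 FPKM. The part of the chromosome in the ribosomal protein differences was not tested by any measure of the DNA.

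**Figure D4:**
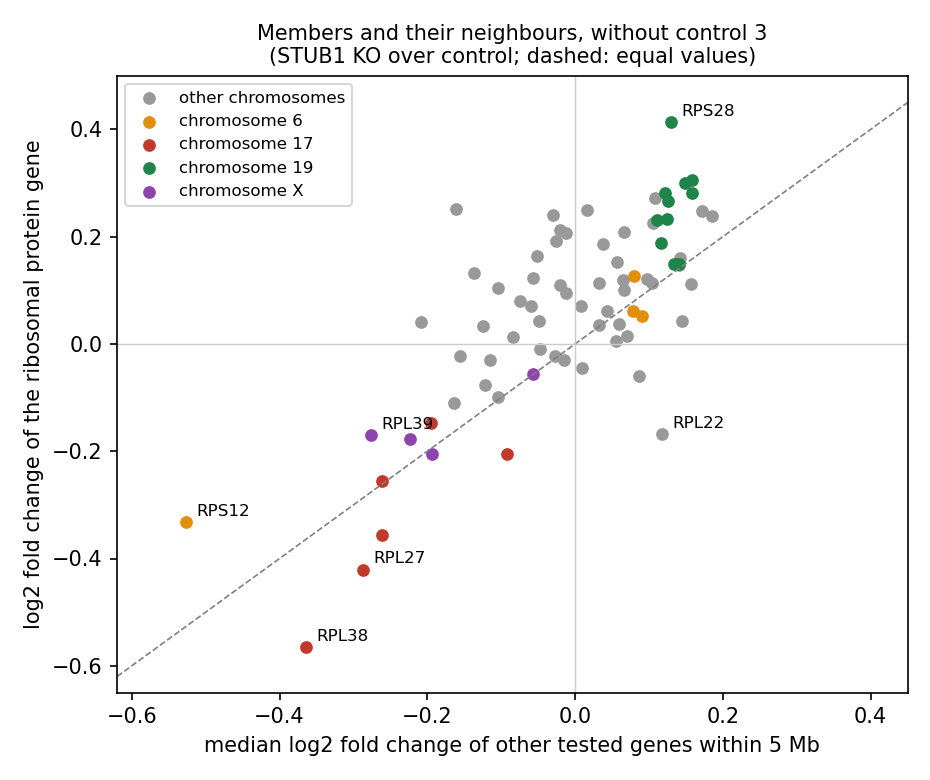
Each point is 1 of the 77 core genes, with the median log2 fold change of other tested genes starting within 5 Mb on the horizontal axis and its own log2 fold change (STUB1 knockout over control, without control 3) on the vertical axis. Members on chromosome 17 (red) and X (purple) lie at the lower left with RPS12, and those on chromosome 19 (green) at the upper right, above the dashed line of equal values.

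Part of the machinery that builds ribosomes was lower in the knockout. Of 73 tested ribosome assembly factors, 29 (39.7%) were lower and 0 higher (median log2 fold change -0.21), where 13.3% of all tested genes were lower and 9.58% higher, and 60 of them outside chromosomes 6, 17 and X gave 21 lower and 0 higher. For all tested genes outside those chromosomes the counts were 844 lower (8.74%) and 1033 higher of 9658. The difference between the assembly factors and the ribosomal proteins was not tested. LTV1, which is needed for export and maturation of the small subunit, had 28.2, 24.6 and 26.8 FPKM in the knockout, against 55.3, 49.4 and 58.5 FPKM in the control, a log2 fold change of -1.01 (adjusted p = 0.000171). RPF2, which brings a particle with the smallest ribosomal RNA into the large subunit, had 12.0, 10.8 and 12.3 FPKM in the knockout, against 21.8, 22.2 and 26.7 FPKM in the control (-0.95, adjusted p = 0.000342). In both genes every knockout value was under every control value. Both are on chromosome 6, as is PDCD2, and the neighbours of LTV1, RPF2 and PDCD2 had median log2 fold changes of -0.58, -0.51 and -0.51. GAR1 is on chromosome 4, and its neighbours had a median of -0.087. PDCD2, a dedicated chaperone of RPS2, stood at 57.8% of the control mean and GAR1, a component of the snoRNPs that modify ribosomal RNA, at 67.7% (adjusted p = 0.00153 and 0.00812).

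RNA polymerase I, which makes ribosomal RNA, and its factors had 5 lower (31.2%) and 0 higher of 16 (median -0.15). With the GC and length correction 2 were lower, 1 of them among the 13 outside chromosomes 6, 17 and X. The named ones were TAF1A, TAF1B and UBTF, which act at the ribosomal DNA promoter, and the polymerase subunit POLR1F, at 73.2%, 78.3%, 81.6% and 79.8% of the control mean. Initiation factors outside the TOP class had 7 lower (31.8%) and 0 higher of 22 (median -0.15), among them EIF1AX and EIF1, which help the ribosome scan for the start codon (64.6% and 77.9%), the factor EIF3J, which binds the small subunit (80.5%), and the subunit-joining factor EIF5B (79.7%). Translation factors and other mRNAs that carry a TOP motif had 5 lower (23.8%) and 0 higher of 21 (median -0.066), among them the initiation factor subunits EIF3H and EIF3M (75.2% and 73.8%) and the histone chaperones NAP1L1 and NPM1 (73.9% and 79.9%). Under the GC and length correction, with all 6 libraries, POLR1F, TAF1B, EIF3J, EIF3M, NAP1L1 and NPM1 did not pass, at log2 fold changes of -0.092, -0.15, -0.079, -0.28, -0.35 and -0.19 (adjusted p = 0.329, 0.0650, 0.205, 0.0583, 0.0653 and 0.0666), and the TOP class had 3 lower and a median of 0.010. The correction left TAF1A, EIF1AX and EIF5B lower, at -0.24, -0.37 and -0.20, against -0.43, -0.62 and -0.32 without it. With the replicate block the TOP class had 3 lower, and NPM1 did not pass (adjusted p = 0.0523). The neighbours of EIF3H, EIF1AX, EIF1 and UBTF had median log2 fold changes of -0.39, -0.24, -0.25 and -0.27. For the other genes named in this paragraph the neighbour medians were -0.15 to 0.056. None of the genes named in this paragraph overlapped between groups, and neither did 45.6% of all tested genes. The named genes were picked by their small p-values, so their separation adds no evidence.

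Chaperones and enzymes that act on the chain as it leaves the ribosome had 5 lower and 0 higher of 10 (median -0.24), and 3 lower with the GC and length correction. DNAJC2 and HSPA14, both of the ribosome-bound HSP70 system, stood at 75.3% and 78.3% of the control mean, METAP2, which removes the first methionine, at 80.2%, and the acetyltransferase subunit NAA10 at 81.3%. Under the correction METAP2 did not pass (-0.15, adjusted p = 0.0876), and HSPA14 had -0.15, against -0.34 without it. Ubiquitin ligases of the ribosome and rescue factors had 4 lower (16.7%) and 1 higher of 24 (median 0.024), near the share of all tested genes, and 1 lower and 1 higher of the 20 outside chromosomes 6, 17 and X. The lower ones were the rescue factor HBS1L (61.7%), ASCC3, which takes collided ribosomes apart (68.2%), the recycling factor ABCE1 (73.6%) and UBE2O, which tags unassembled ribosomal proteins (71.3%). HBS1L and ASCC3 are on chromosome 6 and UBE2O is on chromosome 17. The neighbours of HBS1L and ASCC3 had median log2 fold changes of -0.53 and -0.60. Genes of mTOR, LARP1 and MYC control had 4 lower and 1 higher of 20 (median 0.095), and 3 lower and 2 higher with the GC and length correction. The higher gene was MXD4, a repressor that competes with MYC for its partner protein, at 3.03, 3.48 and 3.16 FPKM in the knockout, against 1.98, 2.05 and 1.87 FPKM in the control (log2 fold change 0.51, adjusted p = 0.00163). MYC, a transcription factor that drives ribosome synthesis, had 74.1, 76.0 and 72.5 FPKM in the knockout, against 85.3, 89.4 and 88.0 FPKM in the control (log2 fold change -0.24, adjusted p = 0.0340), and the S6 kinase gene RPS6KB1 and the RNA-binding protein LARP4 stood at 65.8% and 79.7% of the control mean. LARP4 did not pass under the correction (-0.14, adjusted p = 0.0702). The neighbours of MYC and RPS6KB1 had median log2 fold changes of -0.38 and -0.34, and those of LARP4 and MXD4 had 0.065 and 0.094.

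Mitochondrial ribosomal proteins, which are coded in the nucleus and translate the mitochondrial mRNAs, had 17 lower (22.1%) and 1 higher of 77 (median -0.17), and 8 lower (12.7%) and 1 higher among the 63 outside chromosomes 6, 17 and X. With the GC and length correction these lower counts were 14 and 5, and the higher counts 3 and 3. Control 3 was the highest library for 71 of the 77, and for 40 of the 73 assembly factors. MRPL18 on chromosome 6 had 55.4, 54.4 and 57.2 FPKM in the knockout, against 93.9, 93.0 and 113 FPKM in the control (-0.83, adjusted p = 0.000494), and MRPL58, MRPS23 and MRPL45, all on chromosome 17, stood at 56.3%, 58.1% and 73.0% of the control mean. Without control 3, 21.5% of all tested genes were lower and 18.7% higher. The counts of lower and higher genes in that fit were 46 and 1 of 73 for the assembly factors, 9 and 0 of 16 for polymerase I, and 11 and 1 of 22 for the other initiation factors. They were 5 and 0 of 21 for the TOP class, 8 and 0 of 10 for the chaperones, and 5 and 3 of 24 for the ligases and rescue factors. The mTOR group had 5 and 5 of 20, and the mitochondrial ribosomal proteins had 20 and 6 of 77. All lists together gave 76 lower and 3 higher of 266, where the lower count was 30, 20 and 26 without knockout 1, 2 and 3, and 36 and 109 without control 1 and 3. Over all tested genes the lower count was 1500 with all 6 libraries, and 639 to 2418 with 1 library left out. Of the 32 genes named from these lists, 15 passed whichever library was left out, among them LTV1, RPF2, PDCD2, EIF1AX, TAF1A, MXD4, DNAJC2 and MRPL18. The other 17 lost the call at least once, 14, 17, 13, 12 and 3 of them without knockout 1, 2 and 3 and control 1 and 2, with an adjusted p of at most 0.165.

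**Figure D5:**
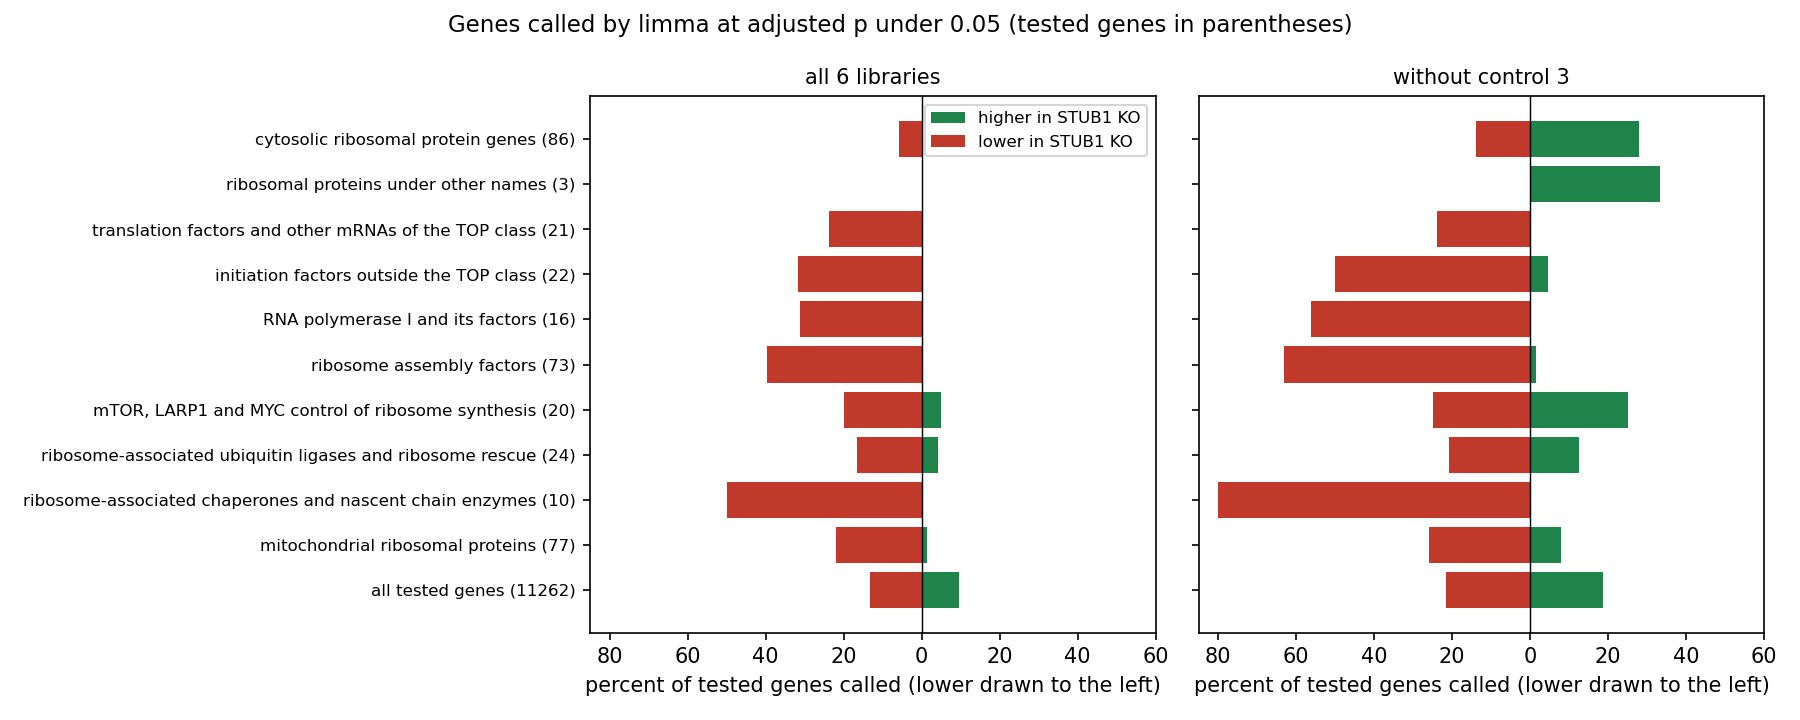
Percent of the tested genes of each list that limma called lower (red, drawn to the left) or higher (green, to the right) in the STUB1 knockout, with all 6 libraries on the left and without control 3 on the right. The cytosolic ribosomal protein genes have the shortest red bar of the lists with any call in the left panel, and in the right panel a green bar longer than their red one.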

How the data were processed

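Poly(A) RNA of 3 STUB1 knockout and 3 control HaCaT libraries was measured, and samples were grouped by the genotype in the labels. The deposited table gives 1 FPKM value per Ensembl gene and library, made by the authors. Per the submitters' processing notes, build GRCh38.p13 was used with HISAT2 2.0.5, Trimmomatic 0.36, Cufflinks, edgeR 3.6.3 and featureCounts 1.6.3, whose roles are not stated. Annotation release, strand setting and the handling of reads that match several places are not given in those notes. Depth per library is not given either, so no counting interval was computed.

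The whole table was fitted and p-values were adjusted over all tested genes. Genes with a mean of at least 1 FPKM (11262) were tested with limma 3.58.1 in R 4.3.3 on log2(FPKM + 1) with an intensity trend in the prior variance, genotype as its 1 term, and Benjamini-Hochberg adjustment at 0.05. Fold changes are knockout over control on this scale and come out too small where FPKM is low. The fit was checked on simulated data. Symbols came from a table of identifiers (19991) and GENCODE 29 (23), and coordinates, exonic length and GC content from GENCODE 29. Neighbours are tested genes, members excluded, that start within 5 Mb. Promoter letters came from RefSeq windows of 300 bases. Other steps ran in Python 3.11.15 (numpy 2.4.6, scipy 1.17.1, matplotlib 3.10.9, pandas 2.3.3).

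Members and lists were chosen with earlier results of these data known. By rule, the text names STUB1, called members, the 5 members with the highest mean, paralogs and read-through genes with their parents, and up to 4 called genes of each list with the smallest p. Some genes are not reported here. Other named members, the chromosomes singled out and 2 alternatives were chosen after values were seen. Same-numbered libraries of the groups deviated together across genes (correlations 0.375, 0.150 and 0.188). Libraries with unlike numbers were not compared, so these values do not show pairing, and a shared day or batch is named in no label. The main fit used no pairs, and the replicate number entered as a block in an alternative. Alternatives were other pseudocounts, filters and scalings, the replicate block, a correction for GC and length, array weights, no intensity trend, and each library left out.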

Additional observations from a re-analysis of the deposited data

How the results depend on the processing

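The direction and call of RPL38 held under every alternative run. The count of 5 lower members was 3 with no filter (RPS12 and RPL19 were lost, RPL19 also with the GC and length correction and the replicate block, adjusted p = 0.0526), 11 on values rescaled to TPM, 8 on TPM without mitochondrial genes, 14 with array weights, and, without control 3, 11 on median-of-ratios scaling and 8 with the GC and length correction. The count of 0 higher members was 1 with the GC and length correction (RPL7) and 24 with array weights, and, without control 3, 24 on median-of-ratios scaling and 40 with the GC and length correction. Leaving out 1 library gave 0 to 24 higher and 1 to 12 lower members, and member medians of -0.13 to 0.072. With the replicate block there were 0 higher and 6 lower members, and among the named genes it changed the calls of RPL36A and NPM1 alone. The median of the members was 0.049 with array weights and otherwise stayed below 0 with all 6 libraries.

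Over all genes, 706 were higher with a filter of 5 FPKM and 667 on TPM, and array weights gave 3139 higher and 3298 lower. Leaving out 1 library gave 391 to 2103 higher and 639 to 2418 lower. Over the lists, the 3 higher genes were 1 on TPM, 5 on median-of-ratios scaling, 6 with the replicate block, 7 with the GC and length correction, 5 with that and the block, and 26 with array weights. The 76 lower genes were 48 on TPM without mitochondrial genes and 126 with array weights. Leaving out 1 library gave 1 to 17 higher and 20 to 109 lower.

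Genes without a call changed sign around 0. The log2 fold changes that did so were, with the GC and length correction, with or without the replicate block, RPS18 0.052, RPL35 -0.063, RPL17-C18orf32 0.22, RPS10-NUDT3 0.026, RPL17 0.12, RPS10 0.086, RPS6 0.12, RPS27A 0.10, RPL11 0.095, FAU 0.0070, RACK1 -0.048. With array weights they were RPS18 0.069, RPL17-C18orf32 0.016, RPS10-NUDT3 0.044, RPL17 0.019, RPS10 0.041, RPLP2 0.035, RPS6 0.058, RPS27A 0.063, RPL11 0.062, FAU 0.12. On TPM they were RPL35 -0.044, RPL7 -0.031, RPLP0 -0.019, RPLP1 -0.024, RPSA -0.0086, RPS20 -0.012, RACK1 -0.0019. On TPM without mitochondrial genes they were RPS18 0.011, RPS10-NUDT3 0.0031, RPS10 0.0033, RPL11 0.026, FAU 0.011. With 1 library left out at a time the ranges were RPS18 -0.095 to 0.061, RPL35 -0.11 to 0.15, RPL39L -0.27 to 0.032, RPL7 -0.054 to 0.12, RPL17-C18orf32 -0.13 to 0.043, RPS10-NUDT3 -0.16 to 0.12, RPL17 -0.13 to 0.043, RPS10 -0.16 to 0.13, RPS28 -0.0040 to 0.41, RPLP0 -0.028 to 0.11, RPLP1 -0.10 to 0.25, RPLP2 -0.31 to 0.042, RPS6 -0.15 to 0.071, RPS27A -0.20 to 0.13, RPL11 -0.11 to 0.10, RPSA -0.049 to 0.19, RPS20 -0.064 to 0.21, RPS3 -0.034 to 0.19, FAU -0.13 to 0.15, RACK1 -0.015 to 0.10. The cause of these changes was not tested. With 3 libraries a group and no read counts, precision rests on the spread between libraries, and depth cannot be weighed.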

Other observations

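Without control 3, the core genes with GC-rich transcripts had higher log2 fold changes (Spearman's rho 0.40, Pearson's r 0.37 over 77 genes, which share libraries), and exonic length went with them hardly at all (rho 0.036, r 0.071). With all 6 libraries the values against GC content were 0.38 and 0.32. Knockout 2, in which mitochondrial transcripts took 30.8% of FPKM, the most of any library, had the highest knockout value of RPS28, RPS15 and RPL13A, all on chromosome 19. The promoter windows of the core genes held CTTTCC in the direction of the gene in 41.9% of cases, against 19.1% of other tested genes. CCGGAAG on either strand was held by 35.5% of core windows, 24.1% of other windows and 43.5% of those of mitochondrial ribosomal protein genes, and TATAAA on either strand by 8.07% of core windows and 8.005% of other windows. CTTTCC can lie inside a run of C and T, and the letters alone do not show that a factor binds.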
